A study of Saccharomyces cerevisiae with 27 samples.

Results

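The 9 genes that encode the cytosolic Hsp70 and Hsp110 chaperones of budding yeast were followed through the RNA-seq counts of wild-type and histone H4 mutant cells. They are SSA1 (YAL005C), SSA2 (YLL024C), SSA3 (YBL075C), SSA4 (YER103W), SSB1 (YDL229W), SSB2 (YNL209W), SSE1 (YPL106C), SSE2 (YBR169C) and SSZ1 (YHR064C). They were chosen by name, as 9 of the 6746 genes in the count table. The rule used no measured value, but earlier results of these data were known when it was set. The table held 27 libraries of poly(A) RNA, 3 labelled replicates in each of 9 groups. Wild-type (WT), H4-T30A, H4-T30D and H4-S47D cells were grown at 30°C in rich medium (no stress). WT, H4-T30A and H4-T30D cells were also heat-stressed for 10 min at 39°C, and WT and H4-S47D cells were osmostressed for 15 min in 0.4 M NaCl. In H4-T30A and H4-T30D cells the threonine is replaced by alanine or by aspartic acid, and in H4-S47D cells the serine is replaced by aspartic acid, whose charge resembles that of a phosphate. By the labels, all strains, WT included, derived from BY4741 MATa and shared the alleles can1::MFA1pr-HIS3, met15Δ0, trp1Δ63, ura3Δ0, lys2Δ0, leu2Δ0 and his3Δ200. All also had hht1-hhf1 replaced by NatMX4 and a URA3-marked HHTS-HHFS cassette, WT or mutant, at hht2-hhf2, so that this cassette was the one source of H3 and H4 in mutant and WT cells alike. The same WT libraries served as controls for all mutants. The study's methods name a WT for each mutated residue, whereas the labels name only H4 WT.

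Hsp70 proteins bind unfolded stretches of other proteins and release them in a cycle driven by ATP. J-domain proteins start the hydrolysis, and exchange factors, among them the Hsp110 proteins, which are themselves distant Hsp70 relatives, open the nucleotide site again. Yeast cytosol holds the SSA proteins, which fold, refold and transport proteins and also restrain the heat shock factor Hsf1, and the SSB proteins, which sit on ribosomes and receive nascent chains. SSZ1 is an atypical Hsp70 that pairs with the J-domain protein Zuo1 on the ribosome to stimulate the SSB proteins, and SSE1 and SSE2 are the Hsp110 exchange factors. Hsf1 binds heat shock elements, inverted repeats of GAA, and the general stress factors Msn2 and Msn4 bind the stress response element.

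Counts summed to between 10212777 and 19503694 per library. All 9 genes passed the filter on low counts in edgeR, with 251 to 431737 counts per gene and library, and 6209 genes were tested in all. Values are CPM, that is, counts scaled to 1000000 per TMM-adjusted library total. A stress response was called where edgeR's glmTreat put the log2 fold change past 1 (adjusted p under 0.05), and every other comparison was tested against 0 by edgeR's quasi-likelihood test. In the plots and text, intervals are 95% intervals of the log2 fold change. RNA was measured in bulk, so that a change per cell and a change in the share of cells cannot be told apart. In every H4-S47D library TRP1 had 2449 to 5685 counts, against 1 to 55 in the other strains, which goes against the trp1Δ63 allele in the H4-S47D label. Comparisons of the libraries labelled H4-S47D with WT therefore cannot tell the mutation apart from other differences between the strains. The replicates are described as biological. The tests measure the spread between them once per gene over all 27 libraries, and not separately in the groups compared. The spread differed between groups. For SSA4 the SD was 35.9% of the mean in osmostressed H4-S47D cells and 1.03% in heat-stressed H4-T30A cells. For SSB1 it was 18.9% in non-stressed WT and 5.74% in non-stressed H4-T30A cells. Intervals can therefore be too narrow where a group with a wide spread is compared.

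The paralogs had to be separated by 50-base reads. Each gene is a single exon in the R64 assembly. The coding sequences of SSA1 and SSA2 matched in 96.8% of aligned bases, with an identical run of 383 bases, and those of SSB1 and SSB2 in 97.6%, with a run of 563 bases. SSE1 and SSE2 matched in 73.2%, and SSA3 and SSA4 in 77.8%. Only reads that map to 1 place were counted. Of the 50-base windows of SSA1 and SSA2, 42.1% and 41.8% occur once in the genome, and of those of SSB1 and SSB2, 56.8% each. For the other 5 genes every window is unique. Levels are therefore compared between genes as CPM per kilobase of unique windows. Reads of SSA1 or SSB1 that may be lost to open reading frames on the other strand were not corrected for. The same windows are counted in every library, so that fold changes of one gene across libraries are compared on the same bases. The first 120 bases of the SSA1 run, which SSA2 also carries, are shown because no 50-base read from within them could be counted for either gene (RefSeq, R64, chrI:140910-141029, minus strand).
SSA1 and SSA2 shared: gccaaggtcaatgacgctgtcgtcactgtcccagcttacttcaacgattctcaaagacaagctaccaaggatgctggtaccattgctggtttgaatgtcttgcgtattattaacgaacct

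The 250 bases before the start codons of the members other than SSE1 were searched on both strands for the stress response element core AGGGG, for a heat shock element of 2 inverted units (GAANNTTC or TTCNNGAA) and for one of 3 units, in which a further inverted unit follows after another NN, so that each 3-unit match also holds 2-unit ones. Among 6001 promoters of the same length, 18.8% held AGGGG, 0.75% a 3-unit and 19.3% a 2-unit match. SSA1 held 2 AGGGG matches, SSA4 1 and SSE2 1. SSA2 held a 3-unit match, which began 233 bases before the start. SSA1, SSB2 and SSE2 each held a 2-unit but no 3-unit match. SSA3, SSB1 and SSZ1 held none of these letters in this window. In a window of 500 bases, chosen after seeing the data, SSA1 also held 3-unit matches, 3 in all, beginning 364, 359 and 261 bases before the start, against 1.48% of 6000 promoters with any. SSA4 then held 3 AGGGG matches and a 2-unit match, where 34.1% and 35.2% of promoters of this length held any. The stretches from 270 to 121 bases before the start of the SSA genes and SSE2 are given 5′ to 3′ on the gene's strand, since the SSA paralogs differ there and SSE2 had the largest osmostress response, with every match in capitals (RefSeq, R64). They lie at chrI:141552-141701 for SSA1, chrXII:97606-97755 for SSA2, chrII:86569-86718 for SSA3, chrV:364319-364468 for SSA4 and chrII:576117-576266 for SSE2, on the plus strand for SSA4 and the minus strand for the others.
SSA1: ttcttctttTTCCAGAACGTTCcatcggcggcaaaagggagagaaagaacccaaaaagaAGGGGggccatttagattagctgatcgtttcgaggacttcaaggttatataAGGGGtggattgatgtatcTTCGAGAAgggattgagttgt
SSA2: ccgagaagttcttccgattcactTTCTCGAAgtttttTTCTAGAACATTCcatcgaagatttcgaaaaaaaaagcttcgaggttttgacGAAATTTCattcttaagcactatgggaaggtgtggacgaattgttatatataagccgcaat
SSA3: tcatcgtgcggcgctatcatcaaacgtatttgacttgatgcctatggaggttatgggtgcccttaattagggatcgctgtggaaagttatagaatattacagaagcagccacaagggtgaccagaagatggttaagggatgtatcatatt
SSA4: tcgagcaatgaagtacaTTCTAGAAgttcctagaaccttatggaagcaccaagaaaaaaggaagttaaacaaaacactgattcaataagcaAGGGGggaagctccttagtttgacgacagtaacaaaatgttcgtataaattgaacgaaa
SSE2: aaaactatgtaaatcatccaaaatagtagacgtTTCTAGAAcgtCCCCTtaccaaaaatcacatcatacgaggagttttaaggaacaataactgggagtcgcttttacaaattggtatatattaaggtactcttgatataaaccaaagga

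In non-stressed WT cells the ribosome-bound SSB genes and the constitutive SSA1 and SSA2 were the most abundant members. Per kilobase of unique windows, SSB1 stood at 7386 ± 1396 CPM, SSB2 at 6276 ± 1140, SSA2 at 5237 ± 497 and SSA1 at 3165 ± 291 (SD, n = 3). The ribosome partner SSZ1 (571 ± 27.6) and the Hsp110 gene SSE1 (546 ± 34.8) followed. The stress-inducible members were low, with SSA4 at 26.0 ± 2.05, SSA3 at 21.0 ± 2.15 and SSE2 at 11.3 ± 1.06. The neighbours SSB1 and SSB2, and SSZ1 and SSE1, differed by less than their SDs. Without the correction for unique windows, SSA2 stood at 2136 ± 203 CPM per kilobase and SSA1 at 1299 ± 120. All 9 genes together took 2.03% ± 0.0982 of the counts of a non-stressed WT library.

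Upon heat stress of WT cells, 6 of the 9 genes rose and 3 fell, all past 2-fold (edgeR's glmTreat). Over all tested genes, 15.8% rose and 15.4% fell by the same rule. The SSA and SSE genes rose, and the 3 genes of the ribosome-bound system, SSB1, SSB2 and SSZ1, fell. The share of all counts taken by the 9 genes went to 8.03% ± 0.0406. The median log2 fold change of the 9 was 2.90, against 0.08 for all genes tested.

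SSA4, an SSA gene known for its induction by heat, had 47.7, 53.2 and 45.7 CPM in the non-stressed WT libraries and 21154, 21196 and 20300 CPM in the heat-stressed ones. This 427-fold increase was 8.74 on the log2 scale (adjusted p = 1.40e-26, SE 0.18) and ranked 7 from the top among all tested genes. SSA3 went from 38.3, 44.7 and 37.1 to 3199, 3306 and 3146 CPM (log2 fold change 6.33, SE 0.09, adjusted p = 2.43e-30). For both, every heat-stressed library lay far above every non-stressed one.

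SSE2, the less abundant Hsp110 gene, went from 22.3, 25.5 and 21.4 to 1492, 1480 and 1359 CPM, or 5.97 on the log2 scale (SE 0.08, adjusted p = 1.64e-30). Its paralog SSE1 went from 1143, 1159 and 1029 to 6630, 7131 and 6501 CPM (2.60, SE 0.08, adjusted p = 3.57e-19). The inducible SSE2 thus rose 62.5-fold and SSE1 6.08-fold, with no overlap between conditions in either gene.

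The constitutive SSA1 and SSA2, already abundant, also rose. SSA1 went from 2296, 2470 and 2753 to 29748, 29207 and 25876 CPM, an 11.3-fold increase (log2 fold change 3.50, SE 0.11, adjusted p = 7.15e-20). SSA2 went from 3702, 4120 and 4481 to 32614, 31625 and 27549 CPM, a 7.46-fold increase (2.90, SE 0.12, adjusted p = 1.21e-16). The intervals of the log2 fold change of SSA1 (3.27 to 3.73) and of SSA2 (2.66 to 3.14) did not overlap. Per kilobase of unique windows, heat-stressed WT cells held 39075 ± 3429 CPM of SSA2, 35703 ± 2648 of SSA1, 11108 ± 269 of SSA4, 3322 ± 164 of SSE1 and 1692 ± 42.8 of SSA3 (SD, n = 3). Of these, SSA2 and SSA1 differed by about their SDs, with overlapping libraries.

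SSB1 fell from 6226, 7290 and 9040 CPM to 327, 300.0 and 484 CPM, or −4.34 on the log2 scale (SE 0.17, adjusted p = 1.54e-18). SSB2 fell from 5419, 6072 and 7675 to 476, 446 and 594 CPM (−3.66, SE 0.15, adjusted p = 8.80e-18). SSZ1 fell from 943, 859 and 882 to 270.1, 278 and 288 CPM (−1.68, SE 0.07, adjusted p = 8.23e-11). The third heat-stressed WT library had the highest SSB1, SSB2 and SSZ1 and the lowest SSA1, SSA2, SSA3, SSA4, SSE1 and SSE2 of its group. No call of the WT heat response was lost when it, or any other library, was left out.

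**Figure D1:**
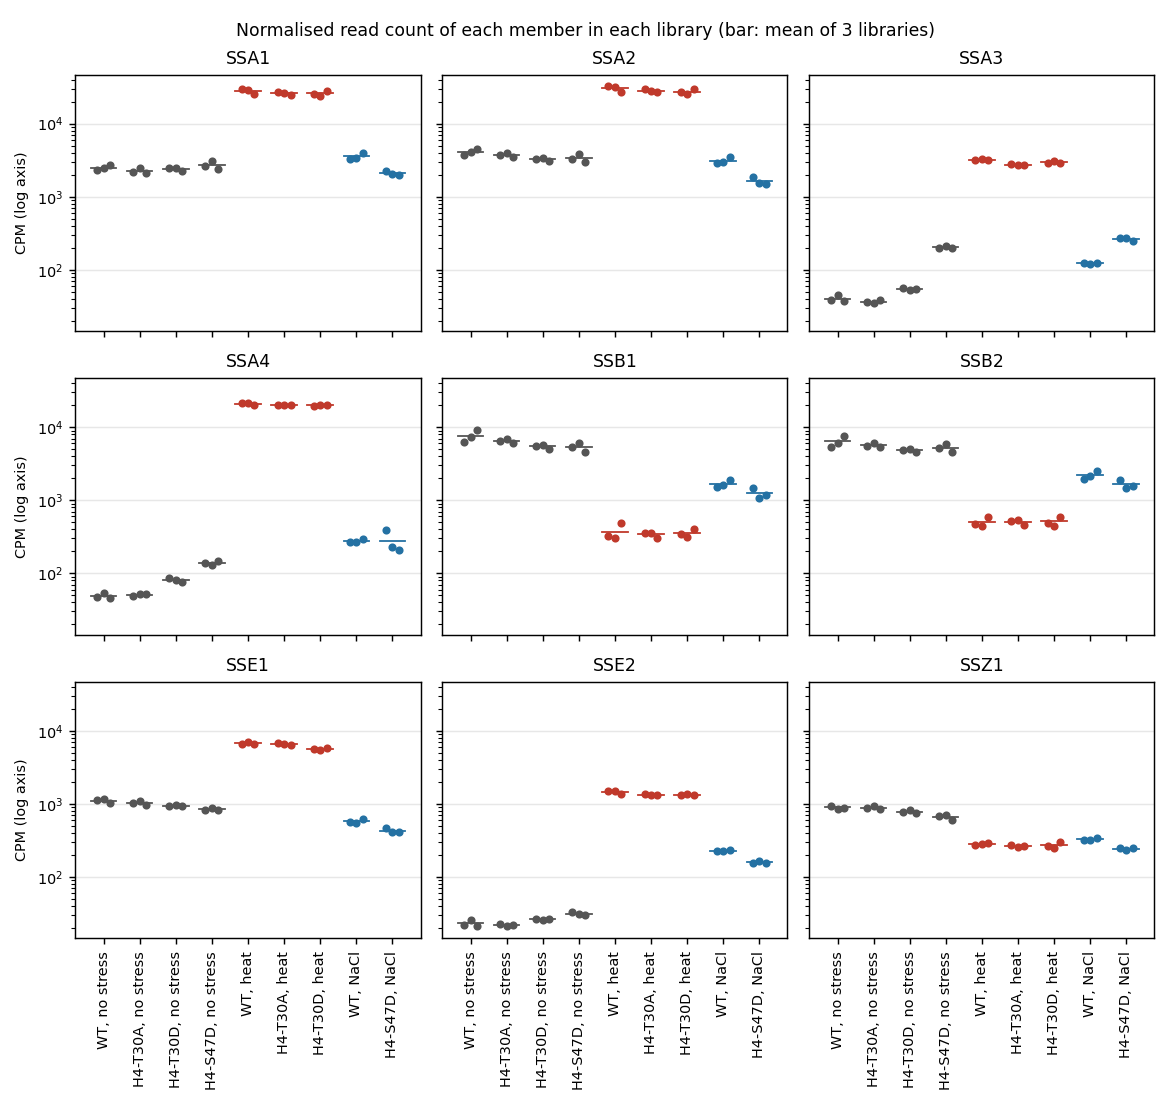
CPM of each of the 9 genes on a log axis in every library, by strain and condition; points are the 3 libraries of a group and bars their mean. SSA4 sits between 45.7 and 53.2 CPM in non-stressed and between 20300 and 21196 CPM in heat-stressed WT cells, whereas SSB1 sits between 6226 and 9040 and between 300.0 and 484 CPM.

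Upon osmostress of WT cells, 3 genes rose past 2-fold (SSA3, SSA4 and SSE2), 3 fell (SSB1, SSB2 and SSZ1) and 3 were not called (SSA1, SSA2 and SSE1). Over all tested genes, 12.8% rose and 12.5% fell. The 3 risers are the inducible paralogs, and the 3 that fell are the same ribosome-bound genes as upon heat. The 9 genes took 1.31% ± 0.0588 of the counts, and the median log2 fold change was −0.40, against 0.08 for all genes tested.

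SSE2 had the largest osmostress response, from 22.3, 25.5 and 21.4 CPM to 226, 225 and 232 CPM (log2 fold change 3.30, SE 0.07, adjusted p = 1.95e-23). SSA4 reached 271, 266 and 294 CPM (2.50, SE 0.14, adjusted p = 5.65e-12). SSA3 reached 124, 121 and 122 CPM (1.61, SE 0.08, adjusted p = 2.14e-09). In all 3 genes the osmostressed libraries lay above the non-stressed and below the heat-stressed ones.

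SSB1 dropped to 1499, 1599 and 1881 CPM (log2 fold change −2.18, SE 0.15, adjusted p = 5.05e-09) and SSB2 to 1985, 2150 and 2527 CPM (−1.52, SE 0.13, adjusted p = 0.000179). SSZ1 dropped to 315, 318 and 345 CPM (−1.46, SE 0.07, adjusted p = 2.54e-07). SSA1, at 3313, 3429 and 3934 CPM, was above its non-stressed libraries, with a log2 fold change of 0.51 (interval 0.30 to 0.72). SSA2, at 2866, 2968 and 3458 CPM, was below them (−0.40, interval −0.63 to −0.18), as was SSE1, at 571, 552 and 619 CPM (−0.94, interval −1.09 to −0.78). These 3 changes were under 2-fold, but each differed from 0 when tested against 0 (edgeR's quasi-likelihood test, adjusted p = 5.98e-05, 0.00157 and 1.78e-12), as did 40.3% of all tested genes upward and 36.2% downward. These tests against 0 were made with TMM scaling alone. Scaling by library totals shifted the median of all genes in this comparison by 0.27, so that changes as small as that of SSA2 depend on the scaling.

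Set side by side with the promoter letters, the genes with an AGGGG match within 250 bases (SSA1, SSA4 and SSE2) had osmostress log2 fold changes of 0.51, 2.50 and 3.30. The SSA paralogs without one (SSA2 and SSA3) had −0.40 and 1.61. SSB1, SSB2 and SSZ1, also without one, had −2.18, −1.52 and −1.46. This is a description of these few genes and not a test of any factor.

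All 9 genes differed between the 2 stresses in WT cells (edgeR's quasi-likelihood test), 6 higher and 3 lower upon heat, against 29.0% and 34.0% of all tested genes. Heat was sampled at 10 min and osmostress at 15 min, so that stress and time cannot be told apart in this comparison. SSA4 was 75.4-fold and SSA3 26.3-fold higher upon heat, with log2 differences of 6.24 and 4.72 that ranked 3 and 9 from the top of all tested genes. SSE1 and SSA2, which were not called upon osmostress, were 11.6-fold and 9.88-fold higher. SSE2 was 6.34-fold higher. SSB1 and SSB2 were lower by similar amounts (log2 −2.16 and −2.14), and SSZ1 differed least (−0.23, SE 0.07, adjusted p = 0.00787).

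**Figure D2:**
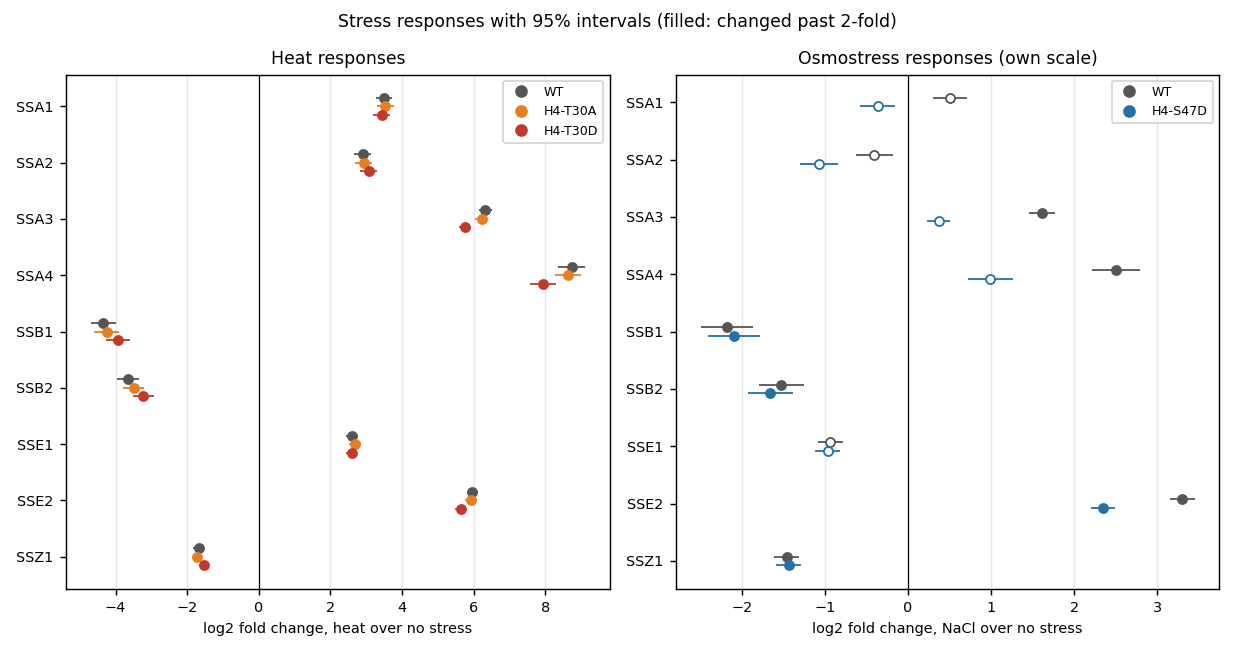
Log2 fold change of each gene upon heat (left; WT, H4-T30A and H4-T30D) and upon osmostress (right; WT and H4-S47D), with 95% intervals and separate scales; filled points changed past 2-fold at an adjusted p under 0.05. The heat responses of WT run from −4.34 (SSB1) to 8.74 (SSA4), and the osmostress responses from −2.18 (SSB1) to 3.30 (SSE2).

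The makeup of each paralog family shifted with stress. Per kilobase of unique windows, the sum of SSA1 to SSA4 went from 8449 ± 785 CPM in non-stressed WT cells to 87579 ± 6366 upon heat and 8661 ± 828 upon osmostress (SD, n = 3). SSA2 made up 62.0% ± 0.393 of it without stress, 44.6% ± 0.708 upon heat and 45.7% ± 0.285 upon osmostress. SSA1 made up 37.5% ± 0.420, 40.8% ± 0.0825 and 51.9% ± 0.149. SSA4 went from 0.310% ± 0.0405 to 12.7% ± 0.648 and 1.71% ± 0.0788, and SSA3 from 0.251% ± 0.0353 to 1.94% ± 0.118 and 0.747% ± 0.0732. Per kilobase of annotated length, where SSA1 and SSA2 are not corrected for uncounted windows, SSA4 made up 0.733%, 25.2% and 3.93% and SSA3 0.593%, 3.84% and 1.72%. On that scale SSA1 was lower upon heat than without stress (34.0% against 37.3%), the opposite of its direction per kilobase of unique windows. Upon osmostress the sum overlapped that of non-stressed cells while its makeup did not: SSA1 was the most abundant member in place of SSA2.

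SSB1 made up 54.0% ± 0.548 of SSB1 plus SSB2 in non-stressed WT cells, 42.0% ± 2.55 upon heat and 42.8% ± 0.212 upon osmostress. The order of the pair thus turned under both stresses. SSE2 made up 2.03% ± 0.121 of the Hsp110 sum without stress, 17.6% ± 0.656 upon heat and 28.2% ± 0.829 upon osmostress. Its share was larger upon osmostress than upon heat although its level was lower, with SSE1 at 286 ± 17.0 CPM per kilobase of unique windows upon osmostress and 3322 ± 164 upon heat.

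**Figure D3:**
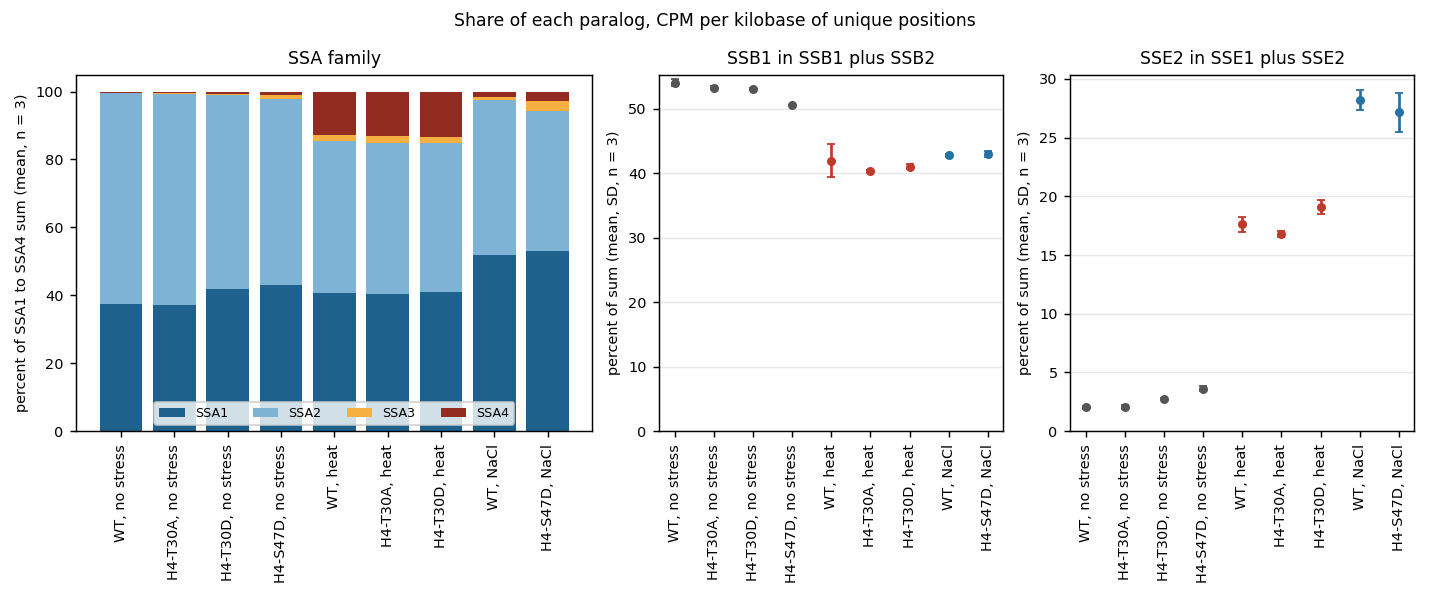
Left, mean percent of SSA1 to SSA4 in their sum (stacked bars, n = 3); middle and right, percent of SSB1 in SSB1 plus SSB2 and of SSE2 in SSE1 plus SSE2 (mean with SD, n = 3), each from CPM per kilobase of unique windows in the 9 groups. SSA4 is 0.310% of its family in non-stressed and 12.7% in heat-stressed WT cells, and SSE2 is 28.2% of its pair in osmostressed WT cells.

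H4-T30A cells were close to WT in these genes. Without stress, 0 of 9 differed from WT (edgeR's quasi-likelihood test; 0 at an unadjusted p under 0.05 and 0 by DESeq2), where 1.39% of all tested genes differed in either direction. The log2 differences ran from −0.21 for SSB1 (interval −0.52 to 0.09) to 0.05 for SSA4 (interval −0.24 to 0.34). Upon heat, the same 6 genes rose and the same 3 fell past 2-fold as in WT cells (background 14.9% and 15.0%). SSA4 went from 49.1, 51.6 and 51.8 to 20447, 20099 and 20073 CPM (log2 change 8.64, SE 0.18, adjusted p = 2.04e-26). SSB1 went from 6438, 6868 and 6127 to 355, 359 and 307 CPM (−4.25, SE 0.17).

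The difference between the H4-T30A and WT heat responses was called for 0 of 9 genes (edgeR's quasi-likelihood test; 0 at an unadjusted p under 0.05 and 0 by DESeq2), against 0.483% of all tested genes in either direction. Its intervals reached at most from −0.49 (SSA4) to 0.55 (SSB2). Between the heat-stressed cells only SSA3 was called lower in H4-T30A, against 4.54% of all tested genes, at 2834, 2720 and 2693 CPM against 3199, 3306 and 3146 CPM (−0.23, SE 0.07, adjusted p = 0.0427). That call was lost under 6 of the 9 other settings with every library and when any 1 of 22 of the 27 libraries was left out.

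H4-T30D cells differed from WT without stress in 8 of the 9 genes (edgeR's quasi-likelihood test). SSA3, SSA4 and SSE2 were higher, and SSA2, SSB1, SSB2, SSE1 and SSZ1 lower, against 16.3% and 15.3% of all tested genes. The differences were small, and none reached 2-fold. The calls also depended on the setting and on single libraries: 4 genes were called with scaling by library totals, all of them higher, 5 with only the libraries compared, and 3 without the third non-stressed H4-T30D library, while 4 were called without the third non-stressed WT library.

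SSA4 had 84.9, 82.1 and 76.7 CPM in non-stressed H4-T30D libraries against 47.7, 53.2 and 45.7 CPM in WT (log2 difference 0.73, SE 0.14, adjusted p = 0.000185). SSA3 had 56.9, 52.9 and 54.8 CPM against 38.3, 44.7 and 37.1 CPM (0.46, SE 0.08, adjusted p = 3.60e-05). The groups did not overlap in either gene, and both differences were called under every scaling and without any one library. SSE2 was higher by 0.20 (SE 0.07, adjusted p = 0.0446), a call lost with DESeq2 (adjusted p = 0.139) and when any 1 of 14 of the 27 libraries was left out.

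SSB1, at 5587, 5725 and 5078 CPM, was at −0.46 against WT on the log2 scale (SE 0.15, adjusted p = 0.0182), and SSB2, at 4940, 5007 and 4521 CPM, at −0.41 (SE 0.13, adjusted p = 0.0190). SSA2 differed from WT by −0.32, SSE1 by −0.24 and SSZ1 by −0.20 on the same scale (adjusted p = 0.0254, 0.0136 and 0.0332). The third WT library had the highest SSB1, SSB2, SSA1 and SSA2 of its group, and without it the differences of SSB1, SSB2 and SSA2 were −0.31, −0.25 and −0.26 and no longer called (adjusted p = 0.134, 0.158 and 0.107).

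Upon heat the H4-T30D libraries reached nearly the WT levels. All 9 genes responded past 2-fold in the same direction as in WT (background 12.8% higher and 14.0% lower). SSA4 reached 19520, 20072 and 20092 CPM against 21154, 21196 and 20300 CPM in WT (log2 difference −0.07, interval −0.33 to 0.19), and SSA3 2938, 3073 and 2877 CPM (−0.12, interval −0.26 to 0.02). SSE1 alone was called lower between the heat-stressed cells, against 8.7% of all tested genes, at 5612, 5493 and 5844 CPM (−0.26, SE 0.07, adjusted p = 0.0185). That call was lost with DESeq2's size factors (adjusted p = 0.0514) and under 4 of the other settings, and without the second heat-stressed WT library or the first or second heat-stressed H4-T30D library (adjusted p = 0.105, 0.0648 and 0.0684).

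The heat response was smaller in H4-T30D than in WT cells for SSA4 (interaction −0.80 on the log2 scale, SE 0.19, adjusted p = 0.00495), SSA3 (−0.57, SE 0.10, adjusted p = 0.000301) and SSE2 (−0.31, SE 0.10, adjusted p = 0.0299). Over all tested genes 9.62% had a smaller value called. Each interaction is the difference upon heat minus the difference without stress: −0.07 and 0.73 for SSA4, −0.12 and 0.46 for SSA3, −0.12 and 0.20 for SSE2. The SSE2 call was lost with DESeq2 (adjusted p = 0.0598) and when any 1 of 15 of the 27 libraries was left out. For SSB1 and SSB2 the interactions were 0.41 (interval −0.03 to 0.84) and 0.43 (interval 0.04 to 0.81) and not called (adjusted p = 0.205 and 0.125). Without the third heat-stressed WT library, in which both genes were highest, they were 0.65 and 0.56 and called (adjusted p = 0.0230 and 0.0422), and without the first non-stressed WT library SSB2 was 0.53 and called (adjusted p = 0.0468).

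Compared directly, the heat response of H4-T30D was smaller than that of H4-T30A for SSA4 (−0.70, SE 0.19, adjusted p = 0.0178) and SSA3 (−0.48, SE 0.10, adjusted p = 0.00312), against 5.23% of all tested genes. Without the first non-stressed H4-T30D library the SSA4 value was −0.65 and no longer called (adjusted p = 0.0534), and without the second non-stressed WT library SSE2 was called as well (−0.28, adjusted p = 0.0466).

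In H4-S47D cells without stress, SSA3, SSA4 and SSE2 were higher and SSA2, SSB1, SSE1 and SSZ1 lower than in WT (edgeR's quasi-likelihood test), against 26.6% and 25.3% of all tested genes. Only SSA3 and SSA4 differed by more than 2-fold. SSA3 had 199, 210.3 and 201 CPM against 38.3, 44.7 and 37.1 CPM in WT, a 5.08-fold difference (log2 2.34, SE 0.08, adjusted p = 9.54e-21). SSA4 had 137, 132 and 147 CPM against 47.7, 53.2 and 45.7 CPM, a 2.83-fold difference (1.50, SE 0.14, adjusted p = 3.28e-10). SSE2 had 33.3, 31.1 and 29.8 CPM against 22.3, 25.5 and 21.4 CPM (0.44, SE 0.07, adjusted p = 1.05e-05).

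The order of SSA3 and SSA4 was turned in these cells. SSA3 stood at 107 ± 3.17 and SSA4 at 73.7 ± 4.06 CPM per kilobase of unique windows (SD, n = 3), whereas in WT SSA4 was the higher of the pair (26.0 ± 2.05 against 21.0 ± 2.15), without overlap in either strain. SSE1 had 835, 873 and 811 CPM (−0.40, SE 0.07, adjusted p = 4.58e-05) and SSZ1 677, 698 and 610.0 CPM (−0.44, SE 0.07, adjusted p = 8.89e-06), both below every WT library. SSB1 differed from WT by −0.50 (SE 0.15, adjusted p = 0.00611) and SSB2 by −0.30 (interval −0.57 to −0.03, adjusted p = 0.0580), on the log2 scale. SSB2 was called lower with DESeq2 (−0.35, adjusted p = 0.0239), with its size factors in edgeR (adjusted p = 0.0315) and without any 1 of 5 libraries (the first non-stressed WT library, the third heat-stressed or the third osmostressed WT library, the second non-stressed or the first osmostressed H4-S47D library). SSA1 overlapped WT (0.11, interval −0.10 to 0.31). Without the third non-stressed WT library the SSA2 and SSB1 differences were −0.21 and −0.34 and not called (adjusted p = 0.144 and 0.0599). The SSA2 call was also lost without any 1 of 5 other libraries (the second non-stressed WT library, the first or the third non-stressed H4-S47D library, or the second or the third osmostressed one). It was lost as well with upper-quartile scaling, library totals, no filter and the compared libraries alone (adjusted p = 0.0941, 0.178, 0.0511 and 0.198). The SSB1 call was lost with the compared libraries alone (adjusted p = 0.0523), and SSA1 was called higher with library totals (0.28, adjusted p = 1.88e-05).

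**Figure D4:**
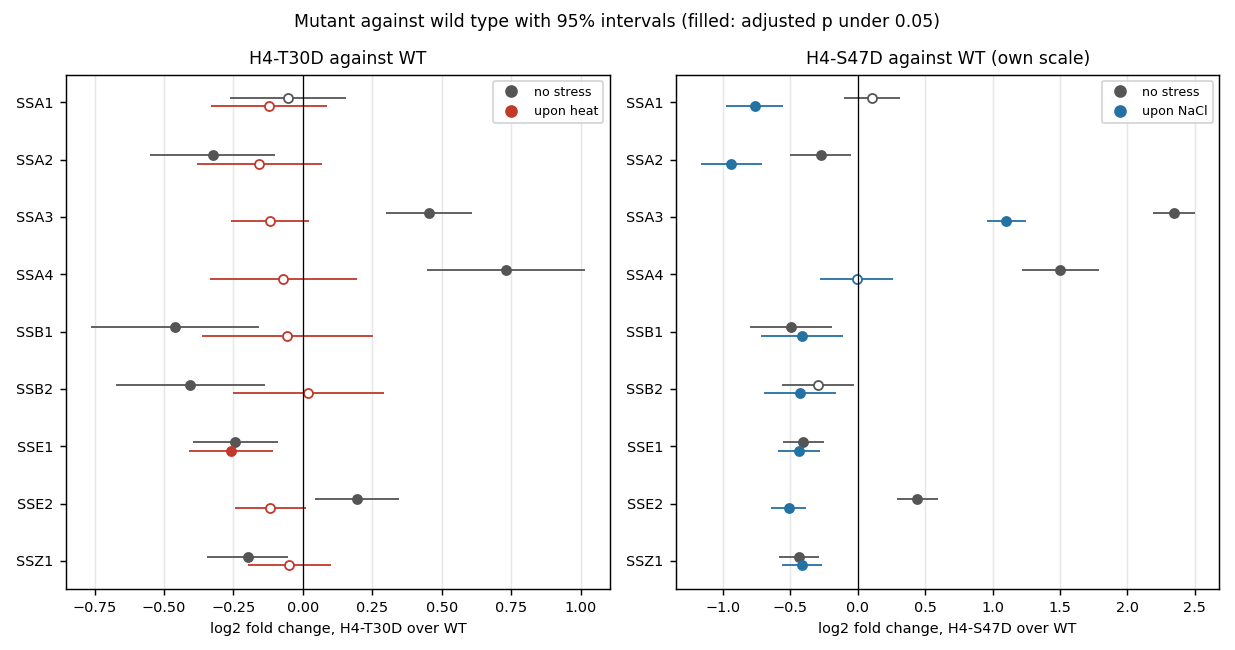
Log2 difference of each gene between mutant and WT cells, without stress and upon stress (left, H4-T30D with heat; right, H4-S47D with NaCl), with 95% intervals and separate scales; filled points have an adjusted p under 0.05. SSA4 is higher by 0.73 in H4-T30D and by 1.50 in H4-S47D cells without stress and near 0 in both upon stress (−0.07 and −0.01). The value of −0.01 depends on the first osmostressed H4-S47D library, with 389 CPM against 229 and 209 CPM in the others.

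Upon osmostress of H4-S47D cells, 1 gene rose past 2-fold (SSE2) and 3 fell (SSB1, SSB2 and SSZ1), against 8.34% and 9.95% of all tested genes. SSE2 went to 157, 166 and 156 CPM (log2 fold change 2.35, SE 0.07, adjusted p = 7.04e-18). SSA3 went to 268, 274 and 244 CPM (0.37, interval 0.22 to 0.51) and SSA4 to 389, 229 and 209 CPM (0.99, interval 0.72 to 1.26), neither called past 2-fold. SSB1 went to 1482, 1083 and 1177 CPM (−2.10, SE 0.15, adjusted p = 3.27e-08). SSA2 went to 1846, 1530 and 1473 CPM (−1.07, interval −1.30 to −0.84), and SSA1 to 2249, 2049 and 1981 CPM (−0.37, interval −0.57 to −0.16). Tested against 0 in place of 2-fold, all 9 responses differed from 0, 3 up and 6 down, against 35.9% and 36.5% of all tested genes. With library totals, which shifted the median of all genes by 0.35, the SSZ1 call was lost (−1.09, adjusted p = 0.165) and SSA4 was called as a riser (1.33, adjusted p = 0.0116).

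Between osmostressed H4-S47D and osmostressed WT cells, 7 genes were lower and SSA3 higher in H4-S47D (edgeR's quasi-likelihood test), against 24.0% and 15.8% of all tested genes. SSA3 remained 2.15-fold higher (log2 1.10, SE 0.07, adjusted p = 5.94e-13). SSA2 differed from WT by −0.94 (SE 0.11, adjusted p = 1.36e-07), SSA1 by −0.77 (SE 0.10, adjusted p = 1.07e-06) and SSE2 by −0.51 (SE 0.06, adjusted p = 3.20e-07), on the log2 scale. SSE1, SSZ1, SSB2 and SSB1 differed from WT by −0.44, −0.42, −0.43 and −0.41. The SSB1 and SSB2 calls were lost with upper-quartile scaling (adjusted p = 0.136 and 0.0719), and likewise without the third osmostressed WT library or the second or the third osmostressed H4-S47D library. Scaling by library totals, which raised the median of all genes in this comparison by 0.25, left 5 genes called, 4 of them lower.

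SSA4 was at the WT level upon osmostress (−0.01, interval −0.28 to 0.26), and 1 library decided this. The first osmostressed H4-S47D library had 389 CPM, against 229 and 209 CPM in the others and 266 to 294 CPM in WT. Without it SSA4 was at −0.33 against WT on the log2 scale and called lower (adjusted p = 0.00435). The sum of SSA1 to SSA4 per kilobase of unique windows was 4992 ± 489 CPM in osmostressed H4-S47D and 8661 ± 828 CPM in osmostressed WT cells (SD, n = 3), against 7911 ± 1001 and 8449 ± 785 CPM without stress.

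The osmostress response was smaller, or more negative, in H4-S47D than in WT cells for 5 of the 9 genes, against 20.7% of all tested genes. The interaction was −1.51 for SSA4 (SE 0.19, adjusted p = 3.35e-07), −1.24 for SSA3 (SE 0.10, adjusted p = 7.10e-11), −0.95 for SSE2 (SE 0.10, adjusted p = 5.95e-09), −0.87 for SSA1 (SE 0.14, adjusted p = 2.53e-05) and −0.66 for SSA2 (SE 0.16, adjusted p = 0.00155). Without the first osmostressed H4-S47D library the SSA4 value was −1.83. The parts differed between genes. For SSA3 and SSA4 the difference without stress (2.34 and 1.50) was larger than that upon osmostress (1.10 and −0.01), for SSE2 both were of similar size and opposite sign (0.44 and −0.51), and for SSA1 the difference lay upon osmostress (0.11 and −0.77). For SSB1, SSB2, SSE1 and SSZ1 the interactions lay between −0.13 and 0.08 and were not called, with intervals within −0.51 and 0.51.

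The factors and partners that work with these chaperones, from lists set by function, were followed by the same rules, and the shares of all genes called are those given above. Of 11 J-domain partners, 3 rose and 3 fell past 2-fold in heat-stressed WT cells. The risers were the main SSA partners SIS1 (log2 fold change 4.75) and YDJ1 (2.39) and APJ1 (4.93), and ZUO1, the partner of SSZ1 and SSB, fell (−2.04), as did JJJ1 (−2.80) and JJJ3 (−2.55). Upon osmostress none of the 11 was called higher (APJ1 had 0.92) and 4 fell, YDJ1 among them (−1.70). Of 10 genes of the Hsp90 machinery, which receives clients from Hsp70, 6 rose and 1 fell upon heat. HSP82 had 5.52, STI1, which bridges Hsp70 and Hsp90, 4.86, and CNS1 −2.12. Upon osmostress HSP82 rose (1.77) and CNS1 and CPR7 fell (−3.24 and −1.32).

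The disaggregase HSP104 and the small heat shock genes HSP26 and HSP42, which act on aggregates with Hsp70, rose in WT cells upon heat (6.97, 8.58 and 8.98) and upon osmostress (3.52, 3.98 and 5.58). In H4-S47D without stress all 3 were higher than in WT, with a median log2 difference of 1.76 against 0.00 for all genes tested. Their interactions were lower in H4-S47D (median −2.21) and in H4-T30D (median −1.01). In H4-T30D all 3 were higher than in WT without stress (median 0.85), and 0 of the 3 were called upon heat (median −0.16). Between osmostressed H4-S47D and WT cells, 1 was called higher (HSP26, 0.45) and 2 lower (median of the 3 genes −0.44). Of the other exchange factors, FES1 rose upon heat (4.98) and SNL1 was not called (−0.68). Of 5 Hsp70 genes of the mitochondria and the endoplasmic reticulum, 2 rose upon heat, KAR2 (4.31) and SSC1 (2.91), and none was called upon osmostress. Of 3 subunit genes of the nascent polypeptide-associated complex, another ribosome-bound partner, EGD1 fell under both stresses (−1.19 and −1.21). Of the genes of the stress factors HSF1, MSN2 and MSN4, MSN4 rose upon heat (1.31) and MSN2 upon osmostress (1.67). Of the 137 cytosolic ribosomal protein genes, 135 fell upon heat (median −2.43), beside −4.34 for SSB1 and −3.66 for SSB2, and 109 fell upon osmostress (median −1.44), beside −2.18 and −1.52.

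Across the 9 group means of log2 CPM, the pairs within families were not always the most alike members. SSB1 and SSB2 had a Pearson r of 0.998 and a Spearman rho of 0.933, SSA2 and SSE1 0.993 and 0.983, SSA3 and SSA4 0.981 and 0.917, and SSA4 and SSE2 0.965 and 0.983. SSA1 and SSA2 had 0.976 and 0.75, and SSE1 and SSE2 0.749 and 0.45. SSB1 and SSE2 had −0.994 and −0.917. The 9 points share strains, controls and the heat groups, which span most of the range, and these values are a description.

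Of 5384 other genes averaging 100 counts or more per library, the 3 most like each member by Pearson r over the same 9 means had r of 0.98 or more. For SSA2 they were HSC82, the constitutive Hsp90 gene (0.9996, rho 0.983), HAC1 and TAH11, and for SSA1 STI1 (0.998, rho 0.80), STE24 and ERO1. For SSA4 they were BTN2, a sorting factor for misfolded proteins (0.999, rho 0.983), CTH1 and HSP82. For SSA3 they were YDL218W (0.987, rho 0.933), RTS3 and HSP26. For SSE2 they were HSP104 (0.998, rho 1.00), OPI10 and KSP1, and for SSE1 UBC4 (0.997, rho 0.983), TAH11 and ZPR1. For SSB1 they were the ribosomal protein genes RPL20A (0.999, rho 0.983), RPS18B and RPL17B. For SSB2 they were RPS0B (0.9997, rho 0.983), SUP45, the translation release factor, and RPL11A, and for SSZ1 MNN10 (0.998, rho 1.00), CKS1 and ARO2.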

How the data were processed

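The authors mapped 50-base single-end reads of TruSeq stranded libraries to sacCer3 with TopHat2 2.1.0, counted uniquely mapping reads on the Ensembl R64-1-1 genes with featureCounts 1.5.1, and deposited unnormalized counts per gene. The strand setting of the counting is not given in the sources used here. The counts of 27 libraries were fitted in edgeR 4.0.16 (R 4.3.3, limma 3.58.1) with 1 mean per group, after filterByExpr with a minimum count of 10 and TMM scaling (factors 0.819 to 1.32). SEs come from the quasi-likelihood F statistic. P-values were Benjamini-Hochberg adjusted over the 6209 genes tested. The tests were tested on simulated data. Alternatives were other scalings and filters, the replicate block, fits to the libraries compared, DESeq2 1.42.0, other thresholds and each library left out. The 9 genes, the lists and the rule for named genes (every member, the 3 genes most like each, and examples from the lists) were chosen with earlier results of these data known. RPP1, an RNase P subunit that the symbol rule also matched, was left out of the ribosomal protein genes. Sequences were read from the R64 assembly with Python 3.11, and plots drawn with matplotlib 3.10.9. The promoter of SSE1 is not reported here.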

Additional observations from a re-analysis of the deposited data

Results flagged for a closer look

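Differences between strains in the response to the same stress, by a test of the difference itself (edgeR's quasi-likelihood test, adjusted p under 0.05), were found for 3 members in H4-T30D against wild type: SSA3 (−0.57 on the log2 scale), SSA4 (−0.80) and SSE2 (−0.31). They were found for 5 members in H4-S47D against wild type: SSA1 (−0.87), SSA2 (−0.66), SSA3 (−1.24), SSA4 (−1.51) and SSE2 (−0.95). They were found for 2 members in H4-T30D against H4-T30A: SSA3 (−0.48) and SSA4 (−0.70). Over all tested genes, 9.62%, 20.7% and 5.23% had a lower value called in these comparisons, in the same order, and 4.4%, 12.9% and 3.78% a higher one. All of the members' values called are negative, and the wild-type libraries are shared between the comparisons with wild type. The SSE2 call in H4-T30D was lost with DESeq2's size factors (adjusted p = 0.123), upper-quartile scaling (0.0577) and the libraries compared alone (0.226), all in edgeR's quasi-likelihood test. No rule was applied to flag single libraries that stand apart in groups of 3, but each library was left out in turn.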

How the results depend on the processing

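The numbers called for the heat responses of the 3 strains (9 members each), of wild-type heat against osmostress (9) and of the S47D interaction (5) stayed the same with each library left out. The 8 members called in H4-T30D without stress became 4 with library totals, 5 with the libraries compared alone, 0 when a change past 2-fold was also asked, and 3 to 8 with a library left out. With library totals SSA1 turned from −0.05 to 0.15 in that comparison and was called, and the median of all genes shifted by 0.20. Asking also for 2-fold left 2 of 7 members in H4-S47D without stress, 1 of 8 upon osmostress, 0 of 3 for the H4-T30D interaction, 2 of 5 for the H4-S47D interaction and 0 of 2 for H4-T30D against H4-T30A responses. With library totals, 5 of 8 remained upon osmostress in H4-S47D, and 4 against 2 were called between the H4-T30D and H4-T30A responses, as with the libraries compared alone (4). The single calls upon heat in H4-T30A and in H4-T30D became 0 with DESeq2's size factors, upper-quartile scaling, library totals, the libraries compared alone and the 2-fold rule, and for H4-T30A also without a filter. The ranges with a library left out were 0 to 1 for both, 2 to 5 for the H4-T30D interaction, 5 to 8 for H4-S47D without stress, 6 to 9 for H4-S47D upon osmostress and 1 to 3 for H4-T30D against H4-T30A. Tested against 0, 9 in place of 4 members changed in osmostressed H4-S47D cells (35.9% of all genes upward and 36.5% downward). Over single members, 1 of 1296 values under settings with every library, and 0 of 3888 with a library left out, changed sign where a call was involved, and 48 and 56 did so uncalled. The causes were not tested.

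Replicate numbers did not pair the libraries: in 0 of 36 pairs of groups were all same-number correlations over 0.1 (median 0.00). With the replicate block, 8 members were called in H4-T30D without stress and 5 for the H4-S47D interaction, as without it. By Spearman's rho the genes most like a member changed for every member, with 0 to 2 of 3 shared. Per kilobase of annotated length in place of unique windows, SSA1 and SSA2 read 1299 and 2136 CPM in place of 3165 and 5237 in non-stressed wild-type cells.

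Over all genes, other scalings moved the share of higher calls among all calls by over 10 points. With library totals it went from 50.5% to 65.7% for the wild-type and from 45.6% to 67.9% for the H4-S47D osmostress response, and from 46.0% to 20.6% for heat against osmostress. Without stress it went from 44.2% to 81.1% in H4-T30A, from 51.5% to 89.1% in H4-T30D and from 51.3% to 77.6% in H4-S47D. Upon stress it went from 31.6% to 73.0%, from 36.5% to 64.0% and from 39.7% to 87.3%. It went from 31.4% to 13.5% for the H4-T30D interaction and from 42.0% to 13.7% for H4-T30D against H4-T30A responses. The medians of all genes shifted by −0.33 to 0.35 with library totals. With DESeq2's size factors the share was 32.9% in H4-T30A and 39.0% in H4-T30D without stress, 47.1% in H4-T30D upon heat, 53.8% and 49.4% for the H4-T30D and H4-S47D interactions and 55.7% for H4-T30D against H4-T30A responses. With upper-quartile scaling it was 58.8% in H4-T30A without stress, 59.2% and 65.7% in H4-T30A and H4-T30D upon heat, 69.8% in H4-S47D upon osmostress (median shift 0.13), and 45.7% and 49.9% for the H4-T30D and H4-S47D interactions.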

Other observations

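The open reading frame YAL004W neighbours or overlaps SSA1, and which of these holds was not settled here. It had 2 to 119 counts per library where SSA1 had 27490 to 396746, and its highest counts were in the heat-stressed groups (51 to 119). YDL228C, which neighbours or overlaps SSB1, had 0 to 12 counts. Without the strand setting of the counting, reads of such a frame and of the gene on the other strand cannot be told apart.

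SSA1, SSA2, SSB1 and SSB2 varied in the same direction between replicates in some groups and in opposite directions in another. In non-stressed wild-type cells the coefficient of variation over 3 libraries was 18.9% for SSB1, 18.2% for SSB2, 9.49% for SSA2 and 9.21% for SSA1, and each was highest in the third library. In non-stressed H4-S47D cells it was 13.3%, 13.1%, 12.8% and 13.2%, each highest in the second library, against 2.96% for SSA3 and 3.77% for SSE1. In heat-stressed wild-type cells the third library was lowest in SSA1 and SSA2 (25876 and 27549 CPM) and highest in SSB1 and SSB2 (484 and 594 CPM).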
